A study of Macaca radiata with 6 samples.

Results

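The steroid converting enzymes described here are 5 genes, HSD3B2, CYP21A2, CYP19A1, HSD17B1 and CYB5A, measured by 6 probe sets of the 52707 on the arrays that are not controls. The probe sets were taken by gene symbol, as all those that the platform annotation assigns to 1 of these symbols alone, and the 5 genes are among 14132 that have such a probe set. CYB5A has 2 probe sets and each of the others has 1, while 2 more probe sets that carry a member symbol together with a second gene were left out. The genes were chosen by their readout in this same contrast, CYP21A2 for its higher mean after CET and the others for their lower means. Their differences between the groups are therefore given as a description, with no test.

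CL tissue came from female bonnet monkeys (Macaca radiata). The animals received 1 s.c. injection on day 7 of the luteal phase, either of Cetrorelix (CET), a GnRH receptor antagonist, at 150 µg/kg, or of the vehicle (VEH), 5.25% glucose, and the CL was collected 24 h later. Each group has 3 arrays, numbered 1 to 3 for CET and 4 to 6 for VEH. The design text states that the same monkeys gave CL for both treatments, but the labels tie no CET array to a VEH array. The arrays were therefore compared as separate samples. The p-values take them as independent, which would not hold for arrays that share an animal. RNA of bonnet monkeys was hybridised to probes designed for the rhesus macaque. In whole CL tissue, fewer cells of a type and less RNA per cell cannot be told apart.

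The CL secretes progesterone (P4) as long as LH reaches it, and a GnRH receptor antagonist withdraws LH. HSD3B2, a 3-beta-hydroxysteroid dehydrogenase, turns pregnenolone into P4. CYP21A2, the 21-hydroxylase, takes P4 on to 11-deoxycorticosterone and is best known from the adrenal cortex. CYP19A1, or aromatase, makes estrogens from androgens, HSD17B1 reduces estrone to estradiol, and CYB5A (cytochrome b5) is an electron carrier that also assists the lyase reaction of CYP17A1. Several of these genes have near-identical copies in primates, among them HSD3B1 beside HSD3B2 and a CYP21 pseudogene beside CYP21A2. Whether the probes separated these copies was not tested.

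Values are log2 of the array signal after quantile normalization, which gives every array the same distribution, and a difference of 1 is a doubling. A probe set is called dim when its mean lies under 7.43, the 40th percentile of all probe sets, since no detection calls were used here. Signals of different probe sets depend on their probes, so each is compared with itself across arrays and never with another.

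CYP21A2 was the member with the higher mean after CET. Its log2 signal was 9.00, 9.66 and 10.42 on CET arrays 1, 2 and 3, and 7.94, 7.52 and 6.96 on VEH arrays 4, 5 and 6. Every CET array lay above every VEH array, with a gap of 1.06 between the lowest CET and the highest VEH array. The means were 9.69 ± 0.71 (SD, n = 3) and 7.47 ± 0.49 (SD, n = 3), a difference of 2.22 with a standard error (SE) of 0.59, or 4.66-fold. In deposited signals, the 21-hydroxylase stood at 512, 856 and 1325 on the CET arrays against 252, 142 and 122 on the VEH arrays. Of all genes, 0.262% had a difference as large or larger in the same direction, which is a rank that the choice of this gene had fixed in part.

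The VEH side of this difference lay at the edge of what the arrays resolve. The VEH mean of CYP21A2 was only just above the dim limit, and the value on VEH array 6 was under it, while all 3 CET arrays lay well above. Subtracting array medians gave a difference of 2.15, a pseudocount of 16 gave 2.12 and the signals as deposited gave 2.35. Leaving out 1 array moved it between 1.87, without CET array 3, and 2.62, without CET array 1. CET array 1 thus held the lowest CYP21A2 value of its group and CET array 3 the highest.

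CYB5A, the electron carrier, differed the other way on every array. At the brighter of its probe sets the CET arrays read 13.45, 12.82 and 13.03 and the VEH arrays 14.04, 13.85 and 13.86. All CET values were under the lowest VEH value, here by a gap of 0.39, and the VEH arrays were close to each other. The CET mean was 13.10 ± 0.32 (SD, n = 3) and the VEH mean 13.92 ± 0.11 (SD, n = 3), a difference of -0.82 with an SE of 0.38. Replicate spread in VEH was among the lowest on the arrays, since only 2.87% of probe sets had an SD as small or smaller there.

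The dimmer CYB5A probe set, whose name marks it as made for the same target, gave 13.34, 12.33 and 12.96 after CET and 13.67, 13.63 and 13.77 after VEH. The groups did not overlap at this probe set either, with a gap of 0.29, and the difference was -0.82 with an SE of 0.40. Both probe sets share their target, so this is not a second independent measurement. They placed CET array 1 nearest to the VEH group and CET array 2 farthest from it. The size of the CYB5A difference moved with the scaling, to -1.20 with the signals as deposited and to -1.40 with array medians subtracted, and its sign did not change under any alternative run.

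HSD3B2, the enzyme that forms P4, had 1 CET array within the VEH group. Its log2 signal was 14.71, 14.35 and 13.53 on the CET arrays and 14.87, 14.65 and 14.51 on the VEH arrays. CET array 1 lay above 2 of the 3 VEH arrays, whereas CET arrays 2 and 3 lay below all of them. The means were 14.20 ± 0.61 (SD, n = 3) and 14.68 ± 0.18 (SD, n = 3), a difference of -0.48 with an SE of 0.44. CET array 3 carried most of it, because the difference was -0.15 without that array and -0.71 without CET array 1. In deposited signals HSD3B2 went from 40129 on CET array 1 to 7980 on CET array 3, and VEH arrays held between 22941 and 43428. The ribosomal protein gene RPL19 was the study's internal control in real time RT-PCR and was not used to scale the arrays. It differed by -0.38 with an SE of 0.46 (limma, adjusted p = 0.89), a size near that of HSD3B2, and by 0.023 without CET array 2.

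CYP19A1, the aromatase, was the least stable member. Its log2 signal was 9.21, 9.00 and 11.68 on the CET arrays and 8.47, 13.56 and 11.40 on the VEH arrays. The groups overlapped over most of their range, with VEH array 4 the lowest of all 6 and VEH array 5 the highest. Deposited signals in the VEH group ran from 356 to 13549, a 38.0-fold range within 1 group, and 99.4% of probe sets had a VEH SD as small or smaller. CYP19A1 averaged 9.97 ± 1.49 (SD, n = 3) on the CET arrays and 11.15 ± 2.55 (SD, n = 3) on the VEH arrays, a difference of -1.18 with an SE of 1.08. This difference was 0.029 without VEH array 5 and -2.48 without VEH array 4, and single CET arrays also moved it, to -0.73 without CET array 2 and to -2.11 without CET array 3.

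HSD17B1, which makes estradiol from estrone, was dim. The CET arrays read 7.09, 6.76 and 5.92 and the VEH arrays 9.03, 6.85 and 6.45, and VEH array 4 was the only 1 of the 6 above the dim limit. The groups overlapped, and the means of 6.59 ± 0.61 (SD, n = 3) and 7.44 ± 1.39 (SD, n = 3) differed by -0.86 with an SE of 0.86. Without VEH array 4 the difference was -0.06, without CET array 3 it was -0.52, and the signals as deposited also gave -0.52. The lower mean of HSD17B1 after CET thus rested on 1 bright VEH array.

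**Figure D1:**
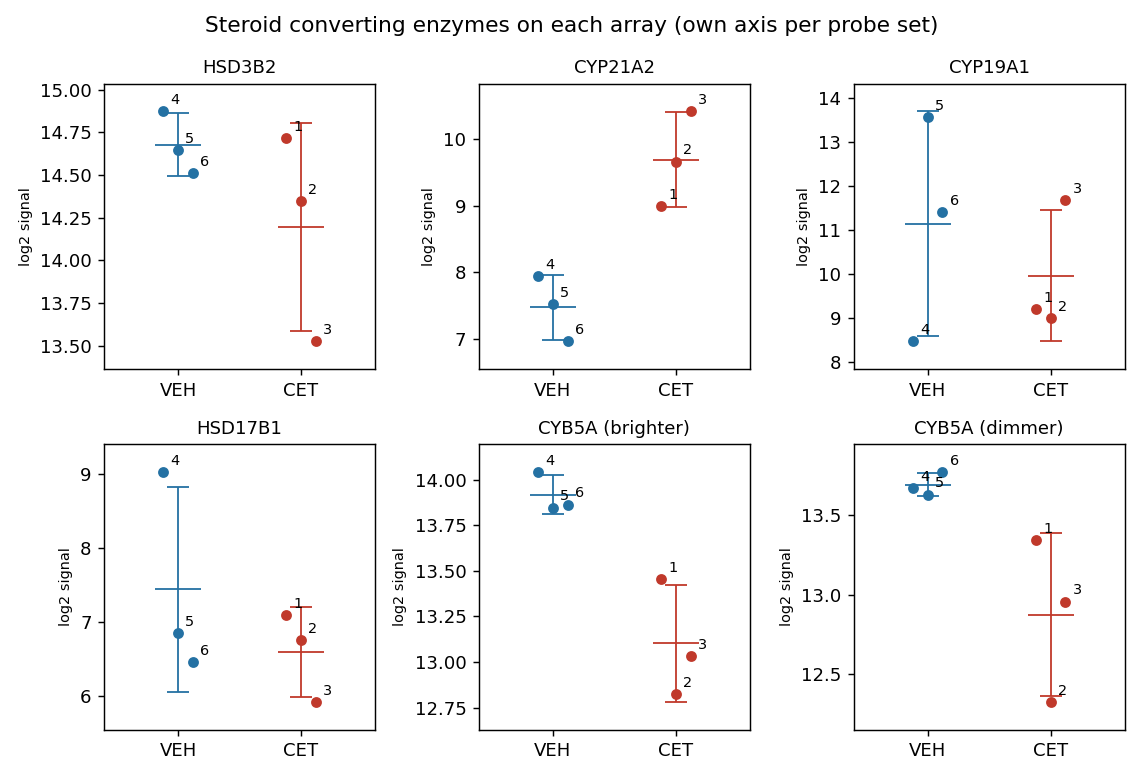
Log2 signal after quantile normalization for each of the 6 probe sets, with a separate vertical axis for each. Numbered points are arrays and bars give the mean and SD of the 3 arrays of a group. CYP21A2 and both CYB5A probe sets had groups that did not overlap, while CYP19A1 had VEH arrays from 8.47 to 13.56.

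Counted over the genes at their brightest probe sets, 1 of the 5 members had a mean at least 1.5-fold higher after CET and 3 had a mean at least 1.5-fold lower, with HSD3B2 under this size. Over all 14132 genes, 18.6% were at least 1.5-fold higher and 24% at least 1.5-fold lower. The groups did not overlap in 1 member on the higher side (CYP21A2) and in 1 on the lower side (CYB5A), where all genes gave 5.07% and 6.45%. These counts rest on the contrast by which the members were picked, so nothing is read from them. A 1.5-fold difference of means was common on these arrays, where the median SD between replicates was 0.85 on the log2 scale.

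The arrays of a group did not deviate alike for all members. In the CET group, CET array 1 was nearest to the VEH mean for CYP21A2, CYB5A, HSD3B2 and HSD17B1, at 1.53, -0.46, 0.04 and -0.35 from it at their brightest probe sets. For CYP19A1 it was not, as CET array 1 lay at -1.93 and CET array 3 at 0.54. CET array 3 was the farthest from the VEH mean for CYP21A2, at 2.95, for HSD3B2, at -1.15, and for HSD17B1, at -1.53, and CET array 2 for CYB5A, at -1.10. The array highest in CYP21A2 was thus also the lowest in HSD3B2 and HSD17B1 of the 6.

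In the VEH group, array 4 was the highest for HSD3B2, CYP21A2, HSD17B1 and the brighter CYB5A probe set, and the lowest for CYP19A1. VEH array 4 lay at 1.59 from the VEH mean for HSD17B1 and at -2.67 for CYP19A1, which are the enzymes of estrogen synthesis among the members. CYP17A1, the enzyme that makes androgens, was also uneven between arrays, at 12.12, 9.11 and 9.18 after CET and 12.29, 9.83 and 9.96 after VEH. Its brightest probe set was high on CET array 1 and VEH array 4 alone, the arrays that also held the highest HSD3B2 and HSD17B1 values of their groups. CYP17A1 differed by -0.56 with an SE of 0.85 between the groups (limma, adjusted p = 0.92), and by 0.23 without VEH array 4. Its other probe set, which was dim, differed by 0.20.

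**Figure D2:**
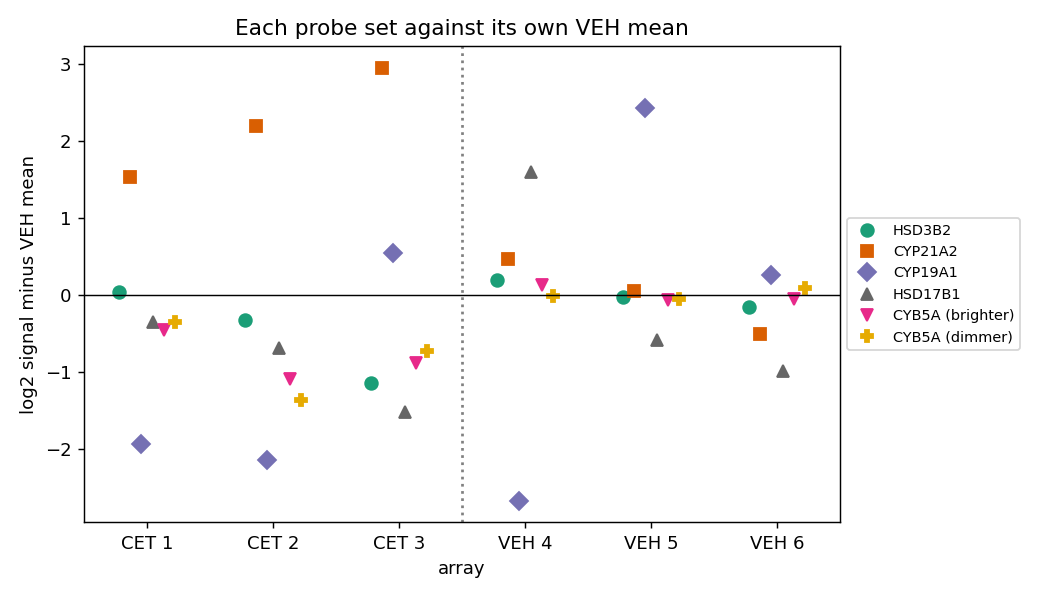
Log2 signal of each probe set on each array minus the mean of the 3 VEH arrays for that probe set, with the CET arrays to the left of the dotted line. CYP21A2 lay between 1.53 and 2.95 on the CET arrays, and CYP19A1 spread furthest in the VEH group.

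RNA quality differed between the arrays, as read from the ratio of 3' to 5' control probe sets, where a high ratio marks shortened transcripts. The GAPDH ratio was 142.9 on CET array 2 and between 1.79 and 7.31 on the other 5 arrays. The ACTB ratio was 37.2 on CET array 2, 22.4 on VEH array 4 and 9.42 on CET array 1, against 2.12 to 3.96 on the rest, so that VEH array 4 stood apart by this control as well. CET array 2 was the middle array of its group for CYP21A2, HSD3B2 and HSD17B1, and the lowest for CYB5A and CYP19A1. Without CET array 2 the differences were 2.22 for CYP21A2, -0.68 for CYB5A, -0.55 for HSD3B2, -0.73 for CYP19A1 and -0.93 for HSD17B1. Without VEH array 4 they were 2.48, -0.74, -0.37, -2.48 and -0.06 in the same order. CYP21A2 and CYB5A thus kept most of their difference without either array, and HSD17B1 lost nearly all of it without VEH array 4.

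**Figure D3:**
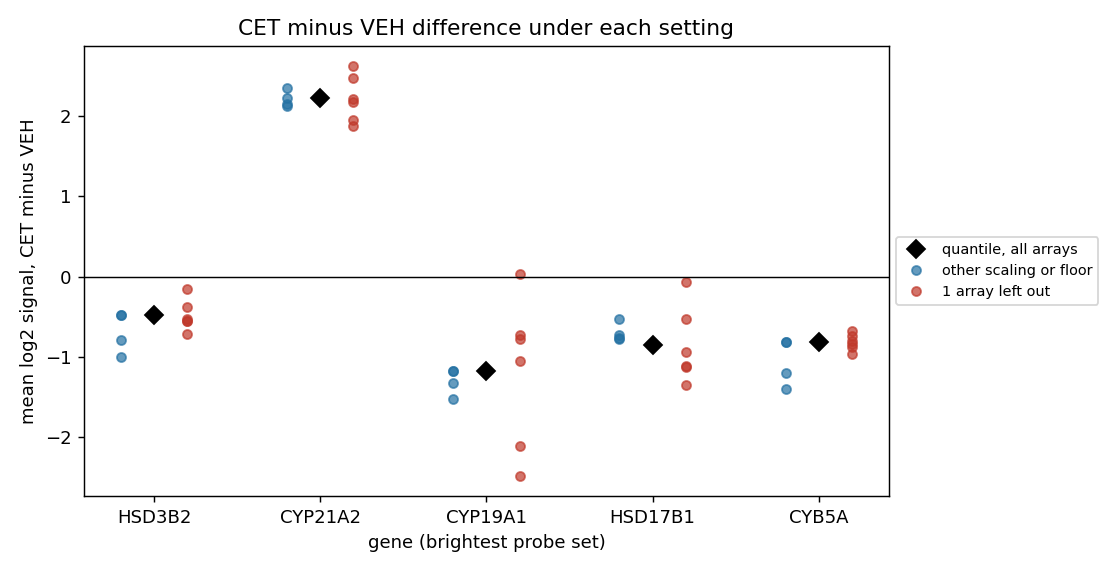
Mean log2 signal of the CET arrays minus that of the VEH arrays for the brightest probe set of each member, as reported (diamond), under another scaling or floor (left points) and with 1 array left out (right points). CYP21A2 stayed between 1.87 and 2.62, and CYP19A1 ran from -2.48 to 0.029.

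The enzymes, carriers, receptors and regulators around the members were read from 7 lists, each gene at its brightest probe set. Of 82 symbols on these lists, 55 had a probe set and 42 of those were above the dim limit. The lists were put together with earlier results of these data known. In limma's test, 0 of the 55 genes passed an adjusted p of 0.05, against 0% of all genes, and across all probe sets 0 passed, the smallest adjusted p being 0.83. At an unadjusted p under 0.05, 7 of the 55 (12.7%) were lower after CET and 0 were higher, where all genes gave 3.01% lower and 2.02% higher. The methods' t-test, run on the same values, passed 0 probe sets after adjustment.

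The count of 7 depended on single arrays. It was 4 without CET array 2 and 16 without CET array 1, and 13 with array medians subtracted. The mean was lower after CET in 40 of the 55 genes (72.7%), against 54.7% of all genes. Of the 55, 22 (40%) were at least 1.5-fold lower and 4 (7.27%) at least 1.5-fold higher, against 24% and 18.6% of all genes. The groups did not overlap in 6 of the 55 (10.9%) on the lower side and in 0 on the higher side, where all genes gave 6.45% and 5.07%. The counts of single lists below stand beside these same shares of all genes. The median difference over the 55 was -0.41, beside -0.08 over all genes.

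Upstream of HSD3B2, cholesterol has to enter the mitochondrion. STAR, which carries it in, read 14.85, 12.75 and 13.65 on the CET arrays and 15.23, 15.58 and 14.91 on the VEH arrays. The groups did not overlap after quantile normalization, by a gap of 0.05. In deposited signals they overlapped, with 43965 on CET array 1 against 34265 and 34390 on VEH arrays 5 and 6. The STAR difference of -1.49 (SE 0.53) had an unadjusted p of 0.017 and an adjusted p of 0.83 in limma, and was -0.96 without CET array 2. All 5 genes measured on this list had a lower mean, with a median of -0.77. The redox partners of mitochondrial P450 enzymes were among them, FDX1 (ferredoxin) at -1.50 with an SE of 0.88 and FDXR (its reductase) at -0.77 with an SE of 0.72, and both overlapped between the groups. Single arrays carried these values at the brightest probe sets, since FDX1 differed by -0.15 without CET array 2 and FDXR by 0.17 without CET array 3. The other probe sets of FDX1 differed by -1.10, where the groups did not overlap by a gap of 0.06, and by -0.33. The other FDXR probe set differed by -2.40 with overlap of the groups.

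Downstream of CYP21A2, the genes for the last steps of corticoid synthesis differed in opposite directions. CYP11B1, the 11-beta-hydroxylase that follows CYP21A2 on the way to corticosterone, read 9.79, 9.42 and 9.31 after CET and 10.63, 10.45 and 11.94 after VEH. Its groups did not overlap, and its difference was -1.50 (SE 0.49, limma unadjusted p = 0.011, adjusted p = 0.83). CYP11B2, the aldosterone synthase, read 11.74, 13.46 and 13.74 after CET and 11.48, 11.65 and 12.37 after VEH, so that CET array 1 lay within the VEH group. It differed by 1.15 (SE 0.54, limma unadjusted p = 0.057, adjusted p = 0.83), by 0.69 with the signals as deposited and by 0.49 with array medians subtracted.

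The neighbours of CYP21A2 are less certain than a single probe set shows. The second probe set of CYP11B1 differed by -0.02 and that of CYP11B2 by 0.25. CYP11B1 and CYP11B2 are near-identical in sequence, and their probe sets may share transcripts.

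The electron donors, which CYB5A belongs with by function, gave 8 of 9 genes with a lower mean and a median of -0.43, and 0 passed the unadjusted threshold. CYB5B, the mitochondrial cytochrome b5, read 12.34, 11.04 and 10.76 after CET and 12.54, 12.16 and 12.37 after VEH, a difference of -0.98 (SE 0.47, limma unadjusted p = 0.059, adjusted p = 0.83). As with CYB5A, CET array 1 was the nearest to the VEH group at this probe set, and for CYB5B it lay within that group. The other CYB5B probe sets differed by -0.25, -0.45, -0.27 and, at a dim one, -2.37. CYB5R4, a cytochrome b5 reductase, differed by -0.89 with an SE of 0.69, and by -0.28 without CET array 2 and -1.57 without CET array 1. CYB5R3, the main cytochrome b5 reductase, was dim and was the 1 gene of the list with a higher mean, by 1.63 with an SE of 0.94 (0.99 without CET array 1).

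Among the relatives of HSD17B1, 5 of 8 measured genes had a lower mean and 2 passed the unadjusted threshold. DHRS9, a retinol and steroid dehydrogenase, read 11.61, 10.87 and 10.87 after CET and 12.59, 12.96 and 11.98 after VEH. It differed by -1.39 (SE 0.43, limma unadjusted p = 0.0072, adjusted p = 0.83) without overlap of the groups. HSD17B7, which also acts in cholesterol synthesis, read 10.77, 9.87 and 10.04 after CET and 11.36, 11.60 and 11.47 after VEH. Its groups did not overlap either, and it differed by -1.25 (SE 0.42, limma unadjusted p = 0.011, adjusted p = 0.83), with -0.57 and -2.17 at its other probe sets. HSD17B4, a peroxisomal enzyme that oxidises estradiol, differed by -0.74 with an SE of 0.49, and by -0.27 without CET array 2 and -1.13 without CET array 1. Its other probe sets differed in opposite directions, by -0.97 and 0.66.

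Of the genes that reduce, sulphate or inactivate steroids, 8 of 11 had a lower mean and 1 passed the unadjusted threshold. CYP3A4, a P450 enzyme that hydroxylates steroids and many drugs and has close relatives in the genome, read 11.47, 10.54 and 9.87 after CET and 12.75, 14.03 and 11.81 after VEH. The groups did not overlap, and the difference was -2.23 (SE 0.59, limma unadjusted p = 0.0029, adjusted p = 0.83). Its 4 probe sets were all on the lower side, by differences from -3.59 to -1.36. Some of them share a target by name, so they are not independent measurements. Whether they separated CYP3A4 from its relatives was not tested. HSD11B1, which regenerates cortisol, differed by -0.88 with an SE of 0.53, by -0.25 without CET array 2 and by -1.37 with array medians subtracted. SRD5A3, a steroid 5-alpha-reductase family member, differed by -0.82 with an SE of 0.46, and by -0.56 and -0.07 at its other probe sets, which were dim.

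Receptors of the steroid products showed no common direction, with 2 of 5 lower and a median of 0.05, and 0 passed the unadjusted threshold. NR3C1, the glucocorticoid receptor, differed by 0.18 with an SE of 0.91, and ran from -1.09 without VEH array 4 to 1.01 without VEH array 5. Its other probe sets differed by -0.24 and, at a dim one, -0.84. ESR2 (estrogen receptor beta) differed by 0.48 with an SE of 0.62, and ran from 0.10 without VEH array 6 to 0.94 without CET array 2. The dim GPER1 (a G protein-coupled estrogen receptor) differed by -1.15 with an SE of 0.94, by -0.34 without CET array 3, by -1.97 without CET array 1 and by -0.32 with a floor at the 20th percentile of each array. Of the regulators of steroid enzyme genes, 10 of 14 had a lower mean and 2 passed the unadjusted threshold. These were CREM, a cAMP-responsive factor, at -1.41 (SE 0.59, limma unadjusted p = 0.037, adjusted p = 0.83), and NR5A2, a nuclear receptor that drives ovarian steroid genes, at -1.34 (SE 0.61, limma unadjusted p = 0.049, adjusted p = 0.83). Both overlapped between the groups. CREM differed by -0.88 without VEH array 5, and its 5 other probe sets ran from -0.73 to 0.28, while NR5A2 differed by -0.77 without VEH array 5 and by -0.86 without CET array 2. NR4A2, an orphan nuclear receptor, differed by -0.95 (SE 0.45, limma unadjusted p = 0.057, adjusted p = 0.83) and did not overlap at its brightest probe set. Its other probe sets differed by -1.60, -0.39, -0.87 and -0.89, and the groups overlapped at each of them.

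**Figure D4:**
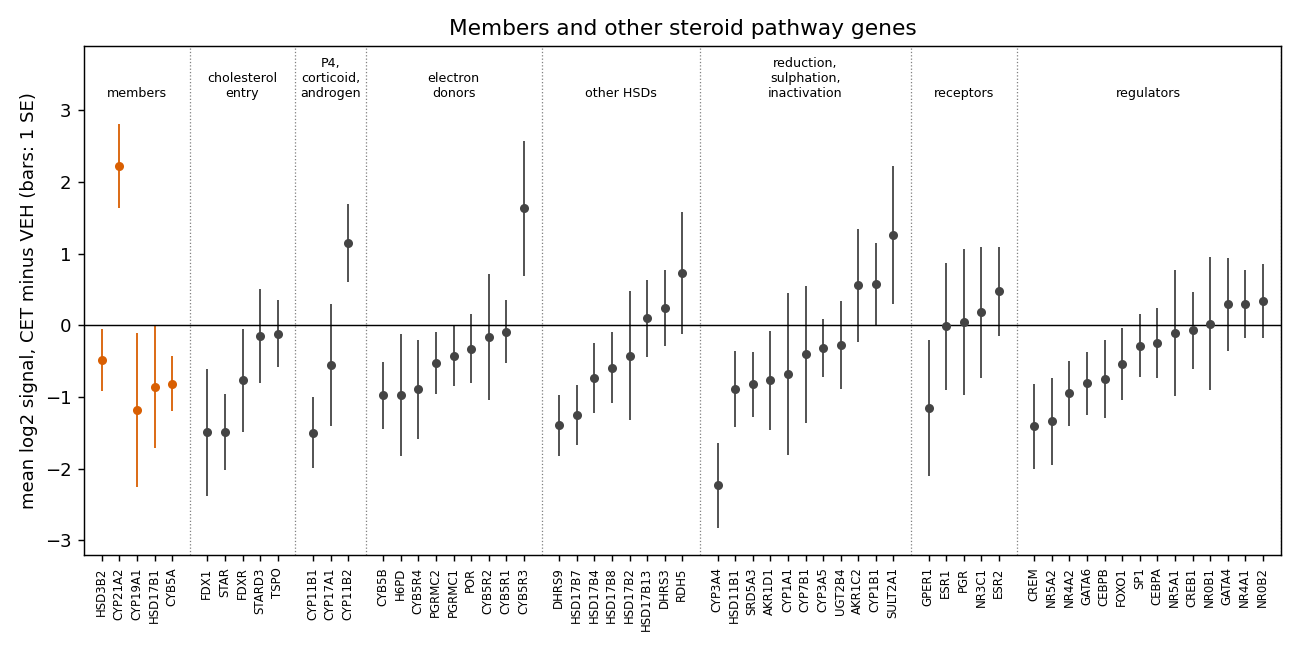
Mean log2 signal of the CET arrays minus that of the VEH arrays with 1 SE for the 5 members (left block) and the 55 other steroid pathway genes, each at its brightest probe set and ordered by difference within its list. CYP21A2, at 2.22, lay above every other gene drawn, which its choice by this contrast makes a description, and CYP3A4 lay lowest, at -2.23.

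Because CYP21A2 is known from the adrenal cortex, the markers of that tissue were read beside it. Of 6 marker genes, the mean was higher after CET in 4 and lower in 2 with a median of 1.05, and 3 of them also stand on the pathway lists. Their deposited signals were summed without quantile normalization, so the brightest genes weighed most. On the log2 scale the sums lay between 12.98 and 13.59 on the CET arrays and between 13.07 and 13.51 on the VEH arrays, and none was at 0. MC2R, the ACTH receptor, read 7.54, 9.89 and 10.16 after CET and 8.99, 6.82 and 8.40 after VEH, with its lowest CET value on the array where CYP21A2 was lowest. Its difference was 1.13 with an SE of 0.80 and the groups overlapped. MRAP, the accessory protein of that receptor, differed by -0.63, and SULT2A1 (a dim sulphotransferase) and CCN3 were highest on CET array 1. Adrenal tissue as a source of the CYP21A2 signal was not tested.

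Markers of luteal cell types were also read on these arrays. Deposited signals were summed here as well. For 5 measured granulosa markers the log2 sums lay between 12.71 and 15.07 on the CET arrays and between 13.90 and 15.56 on the VEH arrays. Of these 5 markers, 2 had a lower mean after CET and 3 a higher mean, with a median difference of 0.24. FST differed by -1.44, and INHBA, INHBB and AMH differed by 0.24, 0.54 and 0.81, the last 2 at dim probe sets. INHA, the inhibin alpha subunit, was on the lower side and differed by -0.99 with an SE of 0.58. INHA was highest on CET array 1 and on VEH array 4 of their groups, as were HSD3B2 and HSD17B1, and lowest on CET array 3, as they were. For the 2 measured theca markers, of which CYP17A1 is 1, the range was 10.11 to 12.40 after CET and 10.29 to 12.70 after VEH. The part of cell makeup in the members' values was not tested.

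The genes whose profile over the 6 arrays was most like that of CYP21A2 were ZAR1, STOX2, CTU1, JAK2 and TSPAN32, by Pearson correlation among 10928 genes above the dim limit. Their correlations were 0.987, 0.986, 0.986, 0.978 and 0.976 over 6 arrays that fall into both groups, and no p is attached since each was picked as the highest of many. JAK2, a cytokine receptor kinase, read 10.54, 10.83 and 11.00 on the CET arrays and 9.92, 9.38 and 9.04 on the VEH arrays. Like CYP21A2, it was ordered CET array 3, 2, 1, then VEH array 4, 5, 6, from the highest down. The other genes held the same order of arrays, and their differences between the groups ran from 1.07 for TSPAN32 to 2.15 for CTU1. The dim limit was applied to the mean over all 6 arrays. STOX2 and CTU1 had VEH means under it, at 6.98 and 6.41, so they passed it only through their CET values.

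**Figure D5:**
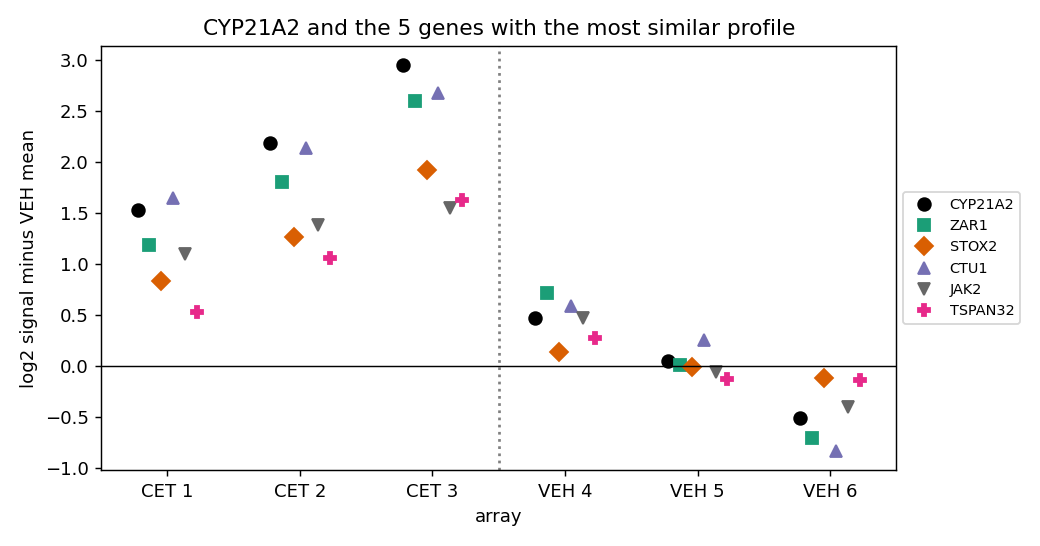
Log2 signal on each array minus the mean of the 3 VEH arrays, for CYP21A2 and the 5 genes with the highest Pearson correlation with it. CET array 3 was the highest and VEH array 6 the lowest for each of the 6 genes.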

How the data were processed

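CL tissue of 3 CET and 3 VEH samples was hybridised to Affymetrix arrays for the rhesus macaque. The deposited intensity values are linear probe set signals that the authors made with MAS5 (5.0 per the labels), and each array has a trimmed mean of 500. Scanner settings were not used here, nor were detection calls. Signals under 1 were set to 1, log2 was taken, and arrays were quantile-normalized over all probe sets, after which 158 control probe sets were left out. Probe sets were named through the platform annotation, which gave 1 symbol to 24956, several to 361 and none to 27390. For each gene the brightest probe set was read. Groups were compared with limma 3.58.1 (R 4.3.3) with an intensity trend and Benjamini-Hochberg adjustment over all 52707 probe sets, and the fit was checked on simulated data. The methods' t-test (Student's, equal variance) was run on the same values, and its counts stand beside limma's. The number of arrays limits the precision of every value.

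The members and the gene lists were chosen with earlier results of these data known. The genes named by rule are the members, up to 3 genes of each pathway list with the smallest unadjusted p, STAR, RPL19 and the 5 genes most correlated with CYP21A2. Marker genes such as MC2R, MRAP, SULT2A1, CCN3 and INHA were named without a fixed rule. Alternatives were the signals as deposited, array medians subtracted, a floor at the 20th percentile, a pseudocount of 16, dim probe sets left out, no trend, array weights, other probe sets of a gene and each array left out in turn. No probe sequences or genome coordinates were used here.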

Additional observations from a re-analysis of the deposited data

How the results depend on the processing

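The difference of CYP21A2 kept its direction under all alternatives run. HSD3B2 differed by -1.0 with array medians subtracted, where the median over all genes was -0.20, and CYB5A by -1.20 with the signals as deposited and -1.40 with array medians subtracted. With 1 array left out, CYP19A1 ran from -2.48 to 0.029, RPL19 from -0.70 to 0.023, FDXR from -1.48 to 0.17, CYP17A1 from -1.55 to 0.23 and NR3C1 from -1.09 to 1.01. NR3C1 differed by -0.010 with array medians subtracted and by -0.27 with array weights. The causes were not tested. Pathway genes lower at an unadjusted p under 0.05 numbered 13 with array medians subtracted, 4 without the trend, 12 with array weights, and 4 (without CET array 2) to 16 (without CET array 1) with 1 array left out. Higher ones numbered 1 with array weights and 0 to 1 with 1 array left out, and those 1.5-fold higher 5 to 8. Probe sets at an unadjusted p under 0.05 numbered 2840 as reported, 2729 by the methods' t-test, 1756 with dim ones left out, 5086 with array weights, and 1694 (without VEH array 5) to 7020 (without CET array 1) with 1 array left out, and 0 passed the adjusted threshold in any of these. Of 52 alternative values for the members, 48 kept their sign and moved by less than the spread between replicates. Another 3 moved by more, and 1, for CYP19A1, changed sign. The spread was wide for CYP19A1 and HSD17B1, so the 48 include the -0.06 of HSD17B1 without VEH array 4. No paired analysis was possible because the labels do not link the CET arrays to the VEH arrays. With 3 arrays a group an exact permutation test of 1 value cannot give a p under 0.1, and dim probe sets such as HSD17B1 have little signal over background.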

Other observations

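The summed signals of other cell type markers, on the log2 scale, overlapped between the groups for endothelial markers (13.59 to 14.37 after CET, 14.04 to 14.52 after VEH), macrophage and leukocyte markers (11.92 to 13.06 and 11.35 to 13.35), fibroblast and pericyte markers (13.59 to 14.83 and 14.75 to 15.28), epithelial markers (9.85 to 11.16 and 10.95 to 11.37), liver markers (11.43 to 13.25 and 12.24 to 13.03) and erythroid markers (10.71 to 12.10 and 10.89 to 11.83). These sums were also made from deposited signals without quantile normalization. The correlations of the 5 genes most like CYP21A2 lay between 0.967 and 0.998 under all alternatives run, which include those with 5 arrays. These genes were picked for their correlation on the same arrays and were not picked anew under the alternatives. High values were thus built in, and nothing is read from this range.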
